A study of Mus musculus with 6 samples.

Results

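The dual-specificity MAP kinase phosphatases are the enzymes of the Dusp family that switch off MAP kinases. They were followed here in MS5 cells, a mouse bone marrow stromal line used as a feeder layer for blood cells, after MEK inhibition. The members were the probe sets whose annotated symbol was exactly Dusp1, Dusp2, Dusp4, Dusp5, Dusp6, Dusp7, Dusp8, Dusp9, Dusp10 or Dusp16, which gave 11 of the 28853 probe sets on the array. All 10 genes were measured, among 19938 genes named by any probe set, Dusp8 by a pair of probe sets and each of the others by 1. MEKi cultures received 1 μM of the MEK inhibitor PD184352 and control cultures its diluent, DMSO, both for 7 days. Each of 3 independent experiments (series 1, 2 and 3 of the labels) gave 1 MEKi and 1 diluent culture (6 arrays, n = 3 for each condition). The arrays were made to find stromal genes whose level differs when MEK is blocked. MS5 is a single cell line, so the experiments repeat the culture and not the animal. The values are log2 intensities that the authors normalized with the robust multichip algorithm (RMA), so a difference of 1 is a doubling.

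A MAP kinase is active when a MAP kinase kinase has phosphorylated both a threonine and a tyrosine in its activation loop, and a MAP kinase phosphatase removes both phosphates. MEK is the MAP kinase kinase of ERK, and PD184352 binds MEK outside its ATP site. Several Dusp genes are transcribed in response to the very kinases that their products switch off, which makes them classical negative-feedback genes. By location and preferred substrate the family falls into inducible nuclear enzymes (Dusp1, Dusp2, Dusp4 and Dusp5), cytoplasmic enzymes that prefer ERK (Dusp6, Dusp7 and Dusp9), and enzymes that prefer the stress kinases JNK and p38 (Dusp8, Dusp10 and Dusp16).

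With MEKi, Dusp6 and Dusp4 were lower than with diluent in each of the 3 experiments, Dusp6 at 0.672 and Dusp4 at 0.749 of the diluent level. The other 8 genes lay between 0.875 and 0.981 of it. None of the 10 genes passed an adjusted p under 0.05 from limma (a linear model with moderated variances, blocked by experiment, with Benjamini-Hochberg adjustment across the whole array), against 0.159% of all probe sets in either direction and 0.0555% lower. At an unadjusted p under 0.05 from limma, 2 of the 10 were lower, Dusp6 and Dusp4, and none higher, against 2.31% of all probe sets lower. With the experiment as a random block or with no block, Dusp6 was the 1 gene left at that level (limma unadjusted p = 0.00752 and 0.044). Dusp4 was not (limma unadjusted p = 0.259 and 0.468). With array weights or array medians set equal, 3 genes were at that level. After a further quantile normalization or without experiment 2 it was 4. Dusp4, Dusp5 and Dusp6 were among them each time, and all were lower. Over all 28853 probe sets, in either direction, 907 (no block) to 3337 (array weights) reached that level in these fits. All 10 genes had a mean difference below 0, as did 36.0% of all probe sets. The median of the 10 log2 fold changes was −0.11, beside a median of 0.037 over all probe sets. In bulk RNA, fewer cells with a transcript and less of it per cell cannot be told apart.

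Taken experiment by experiment, 4 genes (Dusp4, Dusp6, Dusp7 and Dusp9) were lower with MEKi in all 3, against 7.98% of all probe sets, and none was higher in all 3. In experiment 3 all 10 genes were lower, in experiment 1 it was 8 and in experiment 2 it was 6. The share of all probe sets lower in a single experiment was not counted. The median difference of the 10 genes was −0.22, −0.068 and −0.19 in experiments 1, 2 and 3. Over all probe sets the median difference was −0.003, 0.10 and 0.014, and the MEKi array of experiment 2 had the highest median of the 6, 6.38, against 6.29 for its diluent array. With array medians set equal, Dusp5 joined the genes that were lower in all 3 experiments, which made 5. The step lowers every difference of experiment 2 by the same amount, and no share of all probe sets was counted after it. With 1 experiment left out, a gene had to be lower in only 2, and the number was 6 without experiment 1 (12.9% of all probe sets), 8 without experiment 2 (27.3%) and 4 without experiment 3 (13.8%).

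**Figure D1:**
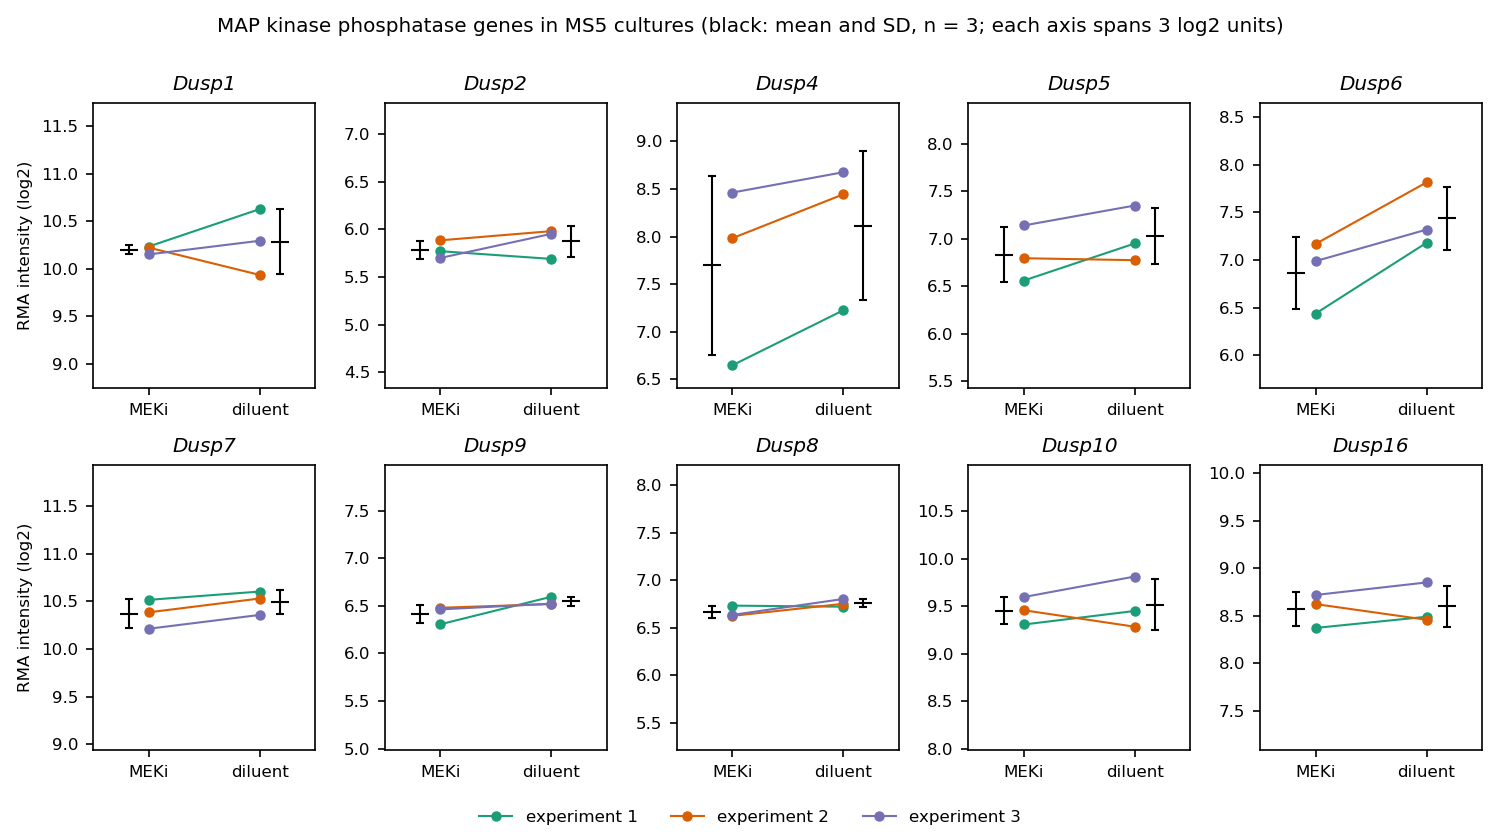
RMA intensity on the log2 scale (y axis, 3 log2 units in every panel) of the 10 phosphatase genes in MEKi and diluent cultures (x axis), with 1 point per array, lines joining the cultures of an experiment, and the mean ± SD of 3 cultures in black. All 3 lines run upward from MEKi to diluent for Dusp4, Dusp6, Dusp7 and Dusp9, and the lines of Dusp4 lie farthest apart.

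The proximal promoters of 3 genes are shown first, since the transcription factors downstream of MAP kinases act on such sequences. RefSeq (GRCm38.p6) gave a promoter for 8 of the 10 genes, the exceptions being Dusp4 and Dusp9. The 250 bases before the start were searched on both strands for 1 form of an ETS site (CCGGAA) and an AP-1 site (TGAGTCA). They were also searched for a cyclic AMP response element (TGACGTCA), a CArG box, which the serum response factor binds, and a GC box (GGGCGG). The last 150 bases before the start are printed for Dusp6, which had the largest difference, for Dusp5, the gene with CArG boxes, and for Dusp1, an immediate early gene. Capitals mark matches to a cyclic AMP response element or a CArG box, and lower case the rest. The sequences lie at chr10:99263081-99263230 on the plus strand (Dusp6), chr19:53528995-53529144 on the plus strand (Dusp5) and chr17:26508473-26508622 on the minus strand (Dusp1).
Dusp6: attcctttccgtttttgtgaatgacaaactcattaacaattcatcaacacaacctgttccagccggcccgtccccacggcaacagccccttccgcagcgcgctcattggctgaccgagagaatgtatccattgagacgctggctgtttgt
Dusp5: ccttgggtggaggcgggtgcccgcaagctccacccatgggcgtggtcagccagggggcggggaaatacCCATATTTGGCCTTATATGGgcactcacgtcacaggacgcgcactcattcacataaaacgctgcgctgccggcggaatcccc
Dusp1: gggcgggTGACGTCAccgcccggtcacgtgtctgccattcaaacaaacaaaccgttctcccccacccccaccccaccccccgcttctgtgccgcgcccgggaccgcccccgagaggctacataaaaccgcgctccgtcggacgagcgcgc
Dusp5 had 2 adjacent CArG boxes, starting 82 and 72 bases before the start, and was the 1 gene of the 8 with this motif, which 1.47% of all 32851 promoters held. The cyclic AMP response element stood 143 bases before the start of Dusp1 and, as 2 copies, 107 and 63 bases before that of Dusp8 (1.55% of all promoters). Neither the ETS letters CCGGAA nor an AP-1 site stood in any of the 8 windows (12.0% and 4.46% of all promoters). Shorter forms of an ETS site were not searched. GC boxes were found in 6 of the 8, Dusp6 and Dusp7 being without (32.7% of all promoters). The matches in the printed stretches did not overlap. A match describes the letters of these windows, and its absence says nothing of the factor.

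Dusp6 encodes the cytoplasmic phosphatase with the best known preference for ERK. It measured 6.44, 7.17 and 6.99 in the MEKi cultures of experiments 1, 2 and 3, against 7.18, 7.81 and 7.32 in the diluent cultures. The highest MEKi culture lay only 0.012 below the lowest diluent culture, so the groups did not overlap, but by a margin far smaller than the spread within either. The differences were −0.74, −0.65 and −0.33, which limma estimated at −0.57 on the log2 scale (standard error 0.097, 95% confidence interval −0.80 to −0.35, not corrected for the number of probe sets, n = 3 experiments). The unadjusted p was 0.000545, which placed Dusp6 at rank 114 of all probe sets, and the adjusted p was 0.137 (limma). The probe sets that did pass had unadjusted p-values up to 7.79e-05. The adjusted p of Dusp6 was nearest the threshold with an intensity trend and robust prior, at 0.0541 (limma), and was 1.00 without the replicate block.

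Dusp7 encodes a second cytoplasmic phosphatase of ERK. Its values were 10.52, 10.39 and 10.21 with MEKi, against 10.60, 10.53 and 10.36 with diluent. The 3 differences, −0.087, −0.15 and −0.15, were close to each other (SD 0.034), but the groups overlapped because the experiments differed by more than that. The log2 fold change was −0.13 (standard error 0.072, adjusted p = 0.627 from limma). Dusp9, the third of the group, measured 6.31, 6.48 and 6.46 with MEKi, against 6.60, 6.52 and 6.52 with diluent. Such values lie near the array medians (6.29 to 6.38), and without detection calls it is not known whether they exceed background. The groups did not overlap, the gap being 0.039, and experiment 1 held most of the difference. The log2 fold change was −0.13 (standard error 0.083, adjusted p = 0.666 from limma) with all experiments and −0.050 without experiment 1. Dusp6 and Dusp9 were the 2 genes of the 10 whose MEKi arrays all lay below all diluent arrays, against 2.17% of all probe sets.

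Dusp4 encodes a nuclear phosphatase that is itself induced by ERK. It had values of 6.65, 7.98 and 8.46 with MEKi, against 7.22, 8.44 and 8.68 with diluent. The groups overlapped widely, since both cultures of experiment 1 lay below all 4 others. Within each experiment the MEKi culture was the lower one, by 0.58, 0.46 and 0.21. The log2 fold change was −0.42 (standard error 0.091, 95% confidence interval −0.63 to −0.20, unadjusted p = 0.00241 and adjusted p = 0.204 from limma). The means of the 3 experiments, over both cultures, spanned 1.63, a range larger than that of 99.1% of all probe sets and about 4 times the difference between MEKi and diluent. Of Dusp6 the experiment means spanned 0.683, also more than the difference with MEKi, and 95.2% of probe sets had a smaller range. Which part of these ranges came from the cells and which from the preparation of the cultures was not tested.

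**Figure D2:**
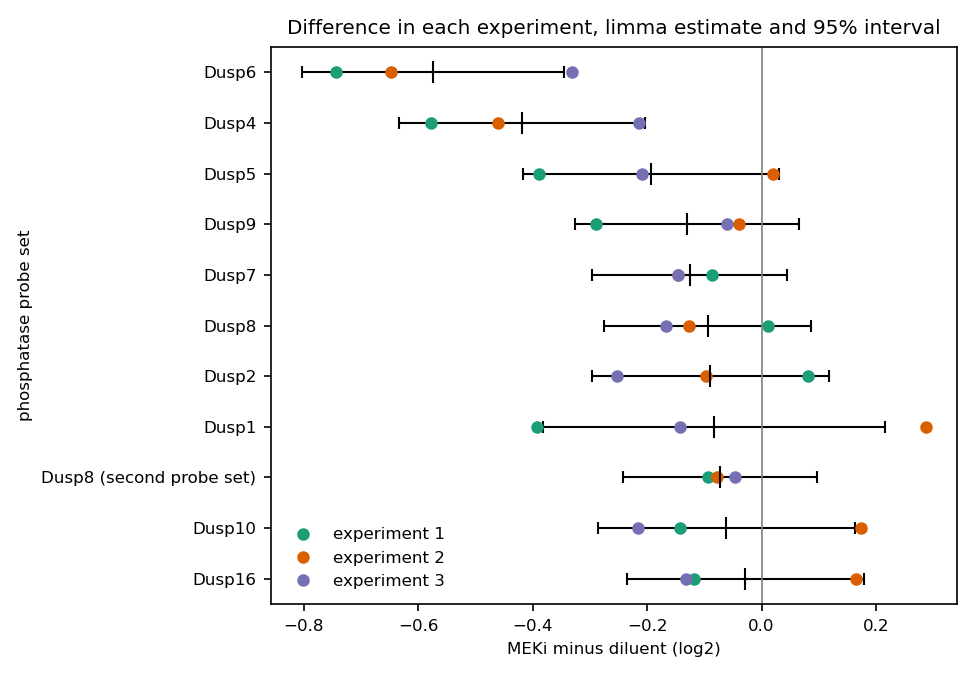
Log2 difference of MEKi from diluent (x axis, MEKi minus diluent) of the 11 phosphatase probe sets (y axis), ordered by log2 fold change; coloured points are the 3 experiments and black bars the limma estimate with its 95% confidence interval. The intervals of Dusp6 and Dusp4 lie below 0, and those of the other probe sets include it.

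Dusp1, the prototype of the family and an immediate early gene of growth factor and stress signals, did not move in 1 direction. It measured 10.23, 10.22 and 10.15 with MEKi, against 10.63, 9.93 and 10.29 with diluent. The 3 MEKi cultures lay within 0.083 of each other, while the diluent cultures spanned 0.691 and held both the highest and the lowest value. The differences were −0.39, 0.29 and −0.14, on average −0.083 (95% confidence interval −0.38 to 0.22; limma adjusted p = 0.874). Without experiment 1 it was 0.072.

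Dusp5, a nuclear phosphatase that acts on ERK, had values of 6.56, 6.80 and 7.14 with MEKi, against 6.95, 6.77 and 7.35 with diluent. It was lower in experiments 1 and 3, by 0.39 and 0.21, and 0.021 higher in experiment 2. The log2 fold change was −0.19 (standard error 0.095, 95% confidence interval −0.42 to 0.031, adjusted p = 0.574 from limma), −0.30 without experiment 2 and −0.094 without experiment 1. Dusp2, best known from activated lymphocytes, measured 5.77, 5.89 and 5.70 with MEKi, against 5.69, 5.98 and 5.95 with diluent. All these values lay below the array medians (6.29 to 6.38), and without detection calls it is not known whether they exceed background. The groups overlapped, with a log2 fold change of −0.090 (limma adjusted p = 0.790). The median log2 fold change was −0.14 over the 4 nuclear genes and −0.13 over the 3 cytoplasmic ones.

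The genes whose products prefer JNK and p38 had a median log2 fold change of −0.061, and no interval of theirs left 0. Dusp10 had differences of −0.14, 0.17 and −0.22 in experiments 1, 2 and 3, and Dusp16 of −0.12, 0.16 and −0.13, so that each was lower in 2 experiments and higher in experiment 2. Their log2 fold changes were −0.061 (95% confidence interval −0.29 to 0.16) and −0.028 (−0.23 to 0.18). The interval of Dusp16 corresponds to 0.850 to 1.13 times the diluent level. Over the 6 arrays Dusp10 and Dusp16 followed each other (Pearson r = 0.951), and Dusp5 followed Dusp10 (r = 0.937), all 3 having their highest values in both cultures of experiment 3. Dusp7, which was lowest in experiment 3, ran against Dusp16 (r = −0.763). These coefficients describe 6 arrays that share 3 experiments.

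Dusp8, known from brain, was read by a pair of probe sets that point the same way. The one with the higher mean measured 6.73, 6.63 and 6.64 with MEKi, against 6.72, 6.75 and 6.80 with diluent, and averaged −0.094 (limma adjusted p = 0.741). The second gave 5.66, 5.65 and 5.68 with MEKi, against 5.76, 5.73 and 5.73 with diluent. Its groups did not overlap and the SD within each was 0.017, but the log2 fold change was −0.073 (adjusted p = 0.790 from limma). The table holds no detection calls, so whether such a signal lies above background is not known.

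**Figure D3:**
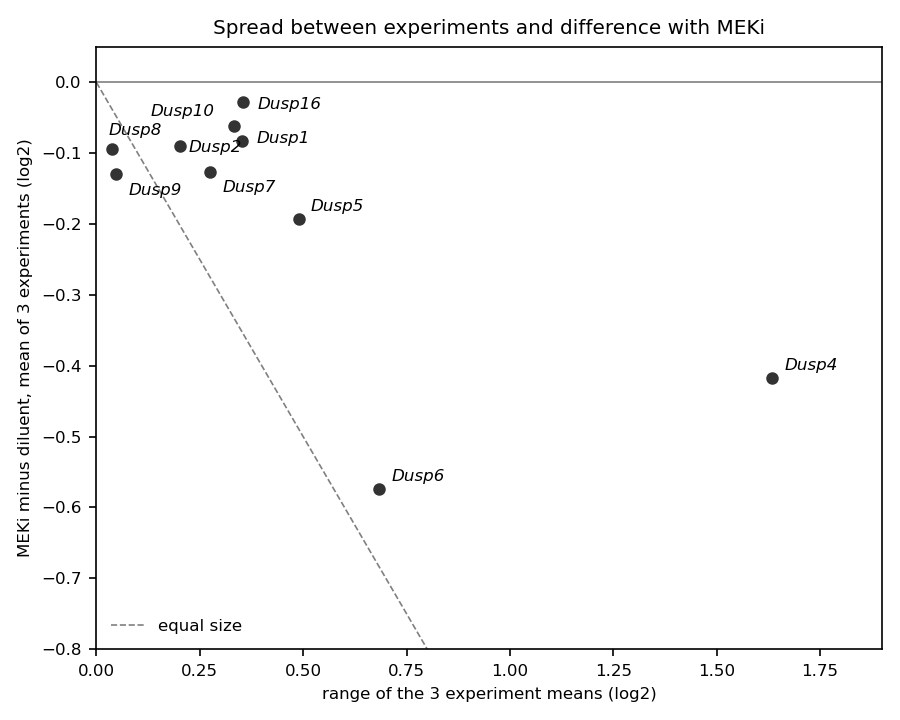
Range of the 3 experiment means (x axis, log2, over both cultures of an experiment) and mean MEKi minus diluent difference (y axis, log2) of the 10 phosphatase genes; the dashed line marks equal size. For 8 genes the range exceeds the difference, most of all for Dusp4 (1.63 against −0.42), and for Dusp8 and Dusp9 it does not.

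By the rule that names the genes most like Dusp6 and Dusp4 over the 6 arrays, 4008 probe sets of other genes were eligible (a mean at or above the median of all and a range of at least 0.5). For Dusp6, 6 of them reached a Pearson r of 0.95, and the first 5 were Sema5a (0.975), a semaphorin, Plce1 (0.971), a phospholipase C that RAS activates, Elovl6 (0.959), a fatty acid elongase, Epas1 (0.956), a hypoxia-inducible factor, and Rab3a (0.954), a vesicle GTPase. All 5 were lower with MEKi in the 3 experiments, Sema5a by 0.57 (adjusted p = 0.177 from limma) and Elovl6 by 0.21, and none passed the threshold. For Dusp4, 31 reached 0.95, led by Map4k4 (0.993), a kinase upstream of JNK, Plk3 (0.988), a polo-like kinase, Tnfrsf12a (0.986), the receptor of TWEAK, Nudt9 (0.984), an ADP-ribose hydrolase, and Casp6 (0.983), a caspase. Tnfrsf12a measured 8.43, 9.57 and 9.88 with MEKi, against 8.66, 9.83 and 9.93 with diluent, and so shared the low values of experiment 1. Its experiment means spanned 1.35, while its log2 fold change was −0.18. All 5 were lower with MEKi in the 3 experiments, and none passed. Both sets of 5 were picked for following Dusp6 or Dusp4 over these same arrays. Dusp6 and Dusp4 were themselves lower in all 3 experiments, so the shared direction is no separate result.

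The other genes of the pathway were read from lists chosen with earlier results of these data known. Of 24 feedback and output genes of ERK measured, 2 fell past the threshold, none rose and 22 did not pass. Their median log2 fold change was −0.37, and 18 were lower in all 3 experiments, against 7.98% of all probe sets. The fallen genes were Ccnd1, which encodes cyclin D1, at −1.32 (standard error 0.097) and Fosl1, an AP-1 factor, at −0.81 (standard error 0.081). Hmga2, a chromatin protein, had a value of −0.85 (adjusted p = 0.0861 from limma) and Ier3, an early response gene, one of −0.83 (adjusted p = 0.243). Dusp6 at −0.57 and Dusp4 at −0.42 thus lay below the median of that list, and the other 8 phosphatases above it.

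The kinases that these phosphatases act on showed no such shift. Of 12 MAP kinases measured, none passed and none was lower in all 3 experiments, against 7.98% of all probe sets. Their median was 0.058, beside 0.037 over all probe sets. In all 3 experiments 3 of them were higher, and the share of all probe sets higher in all 3 was not counted. Mapk11, a p38 kinase, had the largest value, 0.22 (adjusted p = 0.381 from limma). Of 6 MAP kinase kinases none passed (median 0.087). Map2k1, which encodes a target of the inhibitor, had a value of −0.16 (limma adjusted p = 0.659), its experiments giving −0.28, 0.11 and −0.30, and Map2k5 one of 0.21. Of 11 genes listed as targets of JNK and p38 signals, none passed, and the median was −0.083. At an unadjusted p under 0.05 from limma, 2 of them were higher and 2 lower, against 2.31% of all probe sets lower. For the higher direction the share of all probe sets was not counted. Values ran from −0.50 (Tnfaip3, a brake on NF-κB) to 0.43 (Mapkapk3, a kinase activated by p38, adjusted p = 0.152 from limma). Whether these genes respond here to JNK and p38 alone was not tested.

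Of the 16 atypical members of the Dusp family, which lack the domain that docks MAP kinases, none passed. None of the 16 was lower in all 3 experiments, against 7.98% of all probe sets, and their median was 0.043. Dusp19 had the largest value, 0.30 (standard error 0.072, adjusted p = 0.251 from limma). It measured 9.03, 9.23 and 8.90 with MEKi, against 8.71, 8.94 and 8.61 with diluent, and was higher by 0.32, 0.29 and 0.29. Its groups overlapped across experiments, but in each experiment the MEKi culture was the higher one. The 8 other phosphatases known to act on MAP kinases had a median of 0.032 and none passed. Ppp2ca, the catalytic subunit of protein phosphatase 2A, had a value of 0.13 and Ptprr, a tyrosine phosphatase, one of −0.11.

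**Figure D4:**
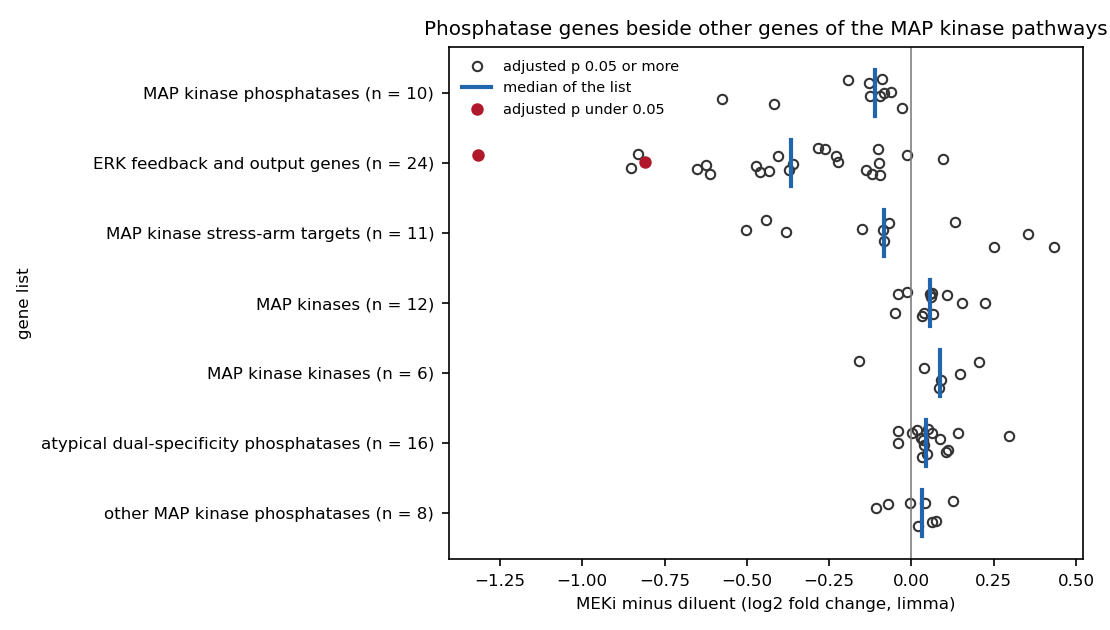
Log2 fold change, MEKi minus diluent, from limma (x axis) of the genes of each list (y axis, with the number measured); open points did not pass an adjusted p under 0.05, filled points did, and blue bars are medians. Among the 10 phosphatase genes no point is filled, and Dusp6 (−0.57) and Dusp4 (−0.42) lie apart from the other 8.

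Over the whole series, 46 probe sets passed, 30 higher and 16 lower. The balance turned after a further quantile normalization (4 higher and 11 lower) and without experiment 1 (6 higher and 8 lower). The medians of the arrays lay between 6.29 and 6.38. Of the 6 fibroblast markers none passed, with differences from −0.023 to 0.15. Their array values ran from 5.46 to 13.3, those of Thy1 (5.46 to 5.67) lying below the array medians. Array values of the 3 haematopoietic (4.71 to 6.15), 3 endothelial (4.61 to 5.18) and 3 epithelial markers measured (4.64 to 6.04) were below those medians too. Summed on the linear scale, the haematopoietic markers came to an intensity of 127 to 137 with MEKi and 128 to 136 with diluent. Of the 3 marrow stroma support genes none passed, and they did not share a direction. Vcam1, an adhesion molecule, stood at −0.57 on the log2 scale (limma adjusted p = 0.0942). Cxcl12 stood at 0.22 (limma adjusted p = 0.445) and Kitl at −0.020 (limma adjusted p = 0.956).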

How the data were processed

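RNA of 6 MS5 cultures was hybridized to Affymetrix mouse Gene ST arrays. The deposited values are log2 intensities per probe set, which the authors made with RMA (background correction, quantile normalization, probe-set summary) and checked in Partek. Versions and the genome build are not given in the sources used here. Every column was mapped to a culture by its accession. The array medians of the deposited values still differed, from 6.29 to 6.38.

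No filter or further normalization was applied. The fit of MEKi against diluent used limma 3.58.1 (R 4.3.3) on all probe sets and a block for the experiment (2 residual degrees of freedom, plus 5.17 from the prior), a two-sided test and Benjamini-Hochberg adjustment. The pairing comes from the labels and the study's design. As a check, arrays of 1 experiment deviated together from their group means (r = 0.81, 0.59 and 0.62 across probe sets). The exact sign-flip test over 3 pairs cannot go below 0.25, so none is given. Probe sets were named where the annotation lists 1 symbol (21789 of 28853), and the probe set with the highest mean stood for a gene. The procedure was tested on simulated data.

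All 10 phosphatase genes were named. From each other list up to 4 genes with the largest change were named, those past the threshold first, together with the 5 genes most like Dusp6 and Dusp4. Members and lists were chosen with earlier results of these data known. Alternatives were no block, a random block, 2 other scalings, brighter or singly named probe sets, a trended prior, array weights, each experiment left out, other thresholds, averaging of the probe sets of a gene, and the methods' analysis of variance. The number of arrays limits the precision, and p-values measure only the spread between these cultures. Python 3.11.15 and matplotlib 3.10.9 drew the figures.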

Additional observations from a re-analysis of the deposited data

How the results depend on the processing

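In none of the alternative fits and thresholds run, left-out experiments included, did a phosphatase gene pass. Averaging of probe sets was applied to the median and the direction counts only, not to this test. Of 119 alternative fits of single phosphatase probe sets, 115 kept the direction. The 4 that turned were small values with an experiment left out. Dusp1 ranged from −0.27 to 0.072, Dusp10 from −0.18 to 0.015 and Dusp16 from −0.12 to 0.024 when each experiment was left out in turn. Dusp6 stayed between −0.70 and −0.49 and Dusp4 between −0.52 and −0.34. The number of phosphatase genes lower in every experiment, 4 with all arrays, ran from 4 to 8 with 1 experiment left out.

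Over all probe sets, the 46 that passed became 0 without the replicate block (907 at an unadjusted p under 0.05), 0 with a random block (2321), 0 with array medians set equal (2780), 15 after a further quantile normalization, 25 among brighter probe sets and 115 under a robust prior with an intensity trend. With 1 experiment left out, 0 to 37 passed, 0 being without experiment 2 and 14 without experiment 1. At an adjusted p under 0.1 there were 77, and 155 at an unadjusted p of at most 0.05 with a 1.5-fold change. The methods' analysis of variance called 0 at a p of at most 0.05% with a 1.5-fold change and 0 after Benjamini-Hochberg adjustment. The percent sign in the methods may be a slip, and at a p of at most 0.05 with the same fold, a setting added after seeing the data, it called 44 (27 higher and 17 lower), with no phosphatase gene among them. The cause of these shifts was not tested. Without the block the standard error of Dusp4 was 0.543 in place of 0.091, as the spread between experiments then counts as error.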
